A study of Mus musculus with 6 samples.

Results

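Expression of 10 contractile and YAP target genes was examined in STHdh cells, a line immortalized from mouse striatum, after transfection with Foxp1. The genes were chosen by name: 7 encode contractile or actin-linked proteins that are classical targets of serum response factor (Tagln, Cnn1, Myl9, Tpm1, Cald1, Vcl and Flna), and 3 are classical targets of YAP (Ctgf, Cyr61 and Ankrd1). The array read 9 of them with 13 probes, of 17830 named genes and 25697 probes in all, and Myl9, a regulatory myosin light chain, was not analysed here because no probe carried its current or an older name. Ctgf and Cyr61 are now called Ccn2 and Ccn1. Of the 13 probes, 12 were detected on all 6 arrays and were tested, and 1, the probe for Cnn1, was detected on no array.

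The study hybridised 6 Illumina mouse beadchips, each with biotin-labelled total RNA of 1 sample. Of these, 3 samples were Foxp1-transfected STHdh cells and 3 were controls, whose titles carry the plasmid name pcDNA while their genotype field reads wild-type, so whether they received an empty plasmid is not settled by the labels. Both groups share the cell line, so all values come from 1 line, and the share of cells that took up Foxp1 is not given in the sources used here. Nothing in the labels says that replicates were separate cultures, so the p-values cover the spread among these 6 samples alone, and that spread may be technical. Foxp1 is a forkhead transcription factor that striatal neurons express strongly, and the series title describes it as a repressor of genes of immune signalling. The arrays detected 11857 to 12136 probes with Foxp1 and 11789 to 12342 in controls, and in both groups the array of replicate 3 was the brightest before normalization. Its median intensity was 64.5 with Foxp1 (36.6 and 38.3 on the others) and 77.0 in the control (29.2 and 31.8 on the others). Foxp1 itself was 6.13-fold higher on the transfected arrays (log2 difference 2.62 ± 0.17 SE, limma adjusted p = 0.0005).

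Serum response factor binds a DNA element called the CArG box and drives genes of the actin cytoskeleton together with the coactivators MRTF-A and MRTF-B, which enter the nucleus when free actin monomers run low. YAP and its relative TAZ are coactivators that bind DNA through TEAD factors, and the Hippo kinases keep them in the cytoplasm. Both systems respond to cell spreading and tension on the actin network, and they share part of their target genes. In brain, strong expression of contractile genes is known mainly from vascular mural cells, while many cultured cells on stiff plastic express them.

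The promoters of the members carry the elements of these pathways in part. RefSeq promoter windows of GRCm38.p6, each 250 bases before and 50 after a start site, were available for 8 of the 10 genes, with 9 windows in all, since Cald1 has 2 (Tagln and Ctgf had none in the table). A CArG box was found in 2 windows, those of Vcl and Myl9, against 1.63% of all 32851 windows. The TEAD hexamer CATTCC, or its complement GGAATG, was found in 6 windows, those of Tpm1, Cald1, Vcl, Flna, Cyr61 and Ankrd1, against 14.7% of all windows. The forkhead heptamer TGTTTAC, or its complement GTAAACA, was found in 1 window, that of Cald1, against 3.65% of all windows. Motifs were searched on both strands, and no match in a member's window overlapped another motif. The 250 bases before the start site are shown for Vcl, which has both a CArG box and a TEAD hexamer, for Ankrd1, which has 2 hexamers, for Cald1, the member with a forkhead match, and for Ptpn14, a YAP target outside the 10 genes that rose and is described further on. Capitals mark the motif matches.
Vcl (chr14:20929148-20929397, + strand): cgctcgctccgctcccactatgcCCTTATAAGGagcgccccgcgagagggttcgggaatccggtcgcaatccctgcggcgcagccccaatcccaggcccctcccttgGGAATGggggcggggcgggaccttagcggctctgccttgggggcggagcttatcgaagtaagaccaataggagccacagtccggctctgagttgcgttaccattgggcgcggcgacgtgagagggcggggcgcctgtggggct
Ankrd1 (chr19:36119845-36120094, - strand): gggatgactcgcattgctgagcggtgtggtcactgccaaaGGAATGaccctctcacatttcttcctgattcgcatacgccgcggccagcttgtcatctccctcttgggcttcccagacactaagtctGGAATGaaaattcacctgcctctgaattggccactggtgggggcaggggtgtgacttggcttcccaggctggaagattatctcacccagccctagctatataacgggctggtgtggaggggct
Cald1 (chr6:34598254-34598503, + strand): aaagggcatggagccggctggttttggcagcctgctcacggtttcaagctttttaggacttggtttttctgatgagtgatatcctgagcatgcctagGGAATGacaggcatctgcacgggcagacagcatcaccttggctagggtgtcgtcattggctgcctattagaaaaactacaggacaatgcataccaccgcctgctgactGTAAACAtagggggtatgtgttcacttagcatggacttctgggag
Ptpn14 (chr1:189728018-189728267, + strand): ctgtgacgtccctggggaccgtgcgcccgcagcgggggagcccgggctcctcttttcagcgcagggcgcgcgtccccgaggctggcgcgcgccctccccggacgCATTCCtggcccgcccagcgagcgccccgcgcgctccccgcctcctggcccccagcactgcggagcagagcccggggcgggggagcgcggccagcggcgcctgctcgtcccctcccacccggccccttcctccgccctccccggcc
Counted from the start site, the matches begin at position -227 (CArG box) and -143 (hexamer) in Vcl, at -210 and -123 in Ankrd1, at -153 (hexamer) and -45 (forkhead) in Cald1 and at -146 in Ptpn14. A match of letters is a description and does not show that a factor binds there.

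No contractile or YAP target member passed the test for a difference between Foxp1-transfected and control cells. Of the 12 tested probes, 0 were higher and 0 lower at an adjusted p of 0.05 with limma, against 2.61% of all 12136 tested probes (1.55% higher, 1.06% lower). At an unadjusted p under 0.05, 1 of the 12 passed, against 18.1% of all probes. The log2 differences, Foxp1 minus control, ran from -0.25 to 0.13 with standard errors of 0.090 to 0.16. The median was -0.035, beside -0.0026 over all tested probes. The median size of the difference without its sign was 0.071 for the members and 0.14 over all probes. All 12 intervals at the 95% level lay within 1 log2 unit of 0, that is within 2-fold, and 11 included 0. The lowest bound was -0.51 (1.42-fold lower) and the highest 0.42 (1.34-fold higher). These are measurements on bulk RNA of a culture, in which fewer expressing cells and less RNA per cell cannot be told apart.

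**Figure D1:**
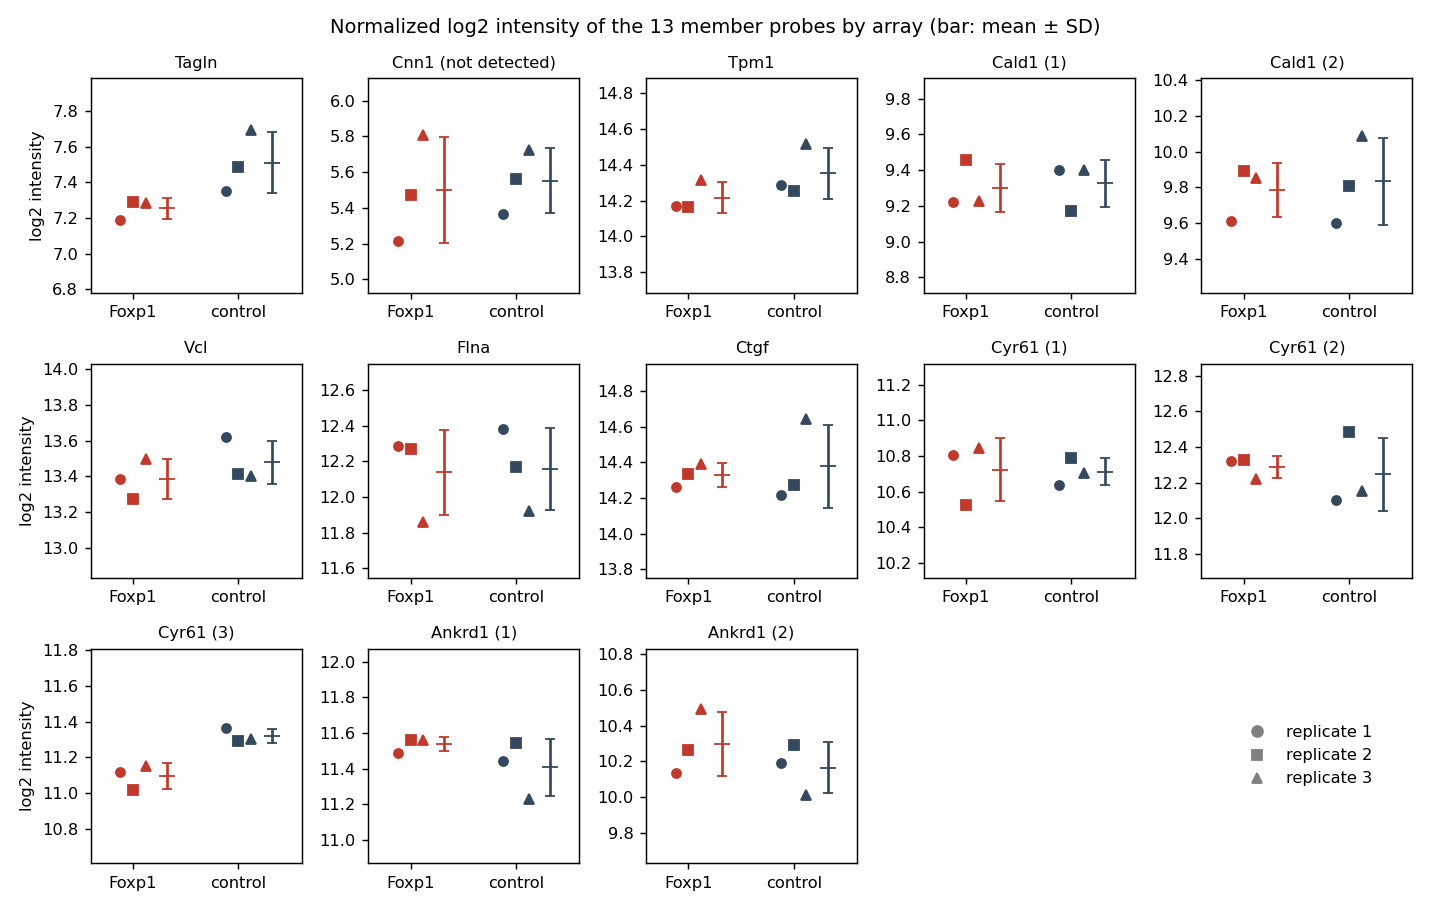
Normalized log2 intensity of each of the 13 member probes (vertical axes, each spanning the same 1.2 log2 units), with the 3 Foxp1 arrays to the left of the 3 control arrays, a symbol for each replicate number and a bar for mean ± SD. The groups are apart for Tagln and Cyr61 (3) and overlap for the other tested probes.

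Among the contractile members, Tagln came nearest to a difference. Tagln encodes transgelin, a calponin-related protein that cross-links actin in smooth muscle. Its probe (ILMN_1243652) had normalized log2 levels of 7.19, 7.29 and 7.29 on Foxp1 arrays 1 to 3 and of 7.35, 7.48 and 7.69 on control arrays 1 to 3. Before normalization its intensities were 108.6, 117.3 and 189.7 on the Foxp1 arrays and 103.2, 117.5 and 303.3 on the control arrays. These were 0.338% to 1.02% of the brightest probe's intensity, and the groups overlapped. Only after normalization was each Foxp1 array below each control array. The distance between the groups was then less than the SD among controls (0.17), and the control of replicate 3 stood highest. The log2 difference was -0.25 ± 0.11 (SE, n = 3 per group), or 0.839-fold, with a 95% interval from -0.51 to 0.0024 (limma adjusted p = 0.282). Without control replicate 3 it was -0.16. After normalization, 24.7% of all tested probes had groups that did not overlap, as did 2 of the 12 member probes. Cnn1, calponin, another actin-binding protein of smooth muscle, had intensities of -6.68, 9.22 and 46.7 on the Foxp1 arrays and of 2.11, 11.3 and 48.4 on the control arrays. Its detection p was between 0.134 and 0.475 in all 6 samples, so its level was below what the array could tell from background in both groups, and no difference is given.

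Tpm1 and Cald1 encode proteins of the actin filament. Tropomyosin 1 lies along the filament, and its probe (ILMN_3007072) read 14.17, 14.16 and 14.32 on the Foxp1 arrays and 14.29, 14.25 and 14.52 on the control arrays. Each Foxp1 array was below the control of its own number, but the groups overlapped (log2 difference -0.14 ± 0.11, 95% interval -0.38 to 0.11, limma adjusted p = 0.548). It was -0.061 without control replicate 3, -0.21 without Foxp1 replicate 3 and -0.064 with median scaling. Tropomyosin genes are close paralogs, and which of their transcripts this probe reads is not given in the files. Caldesmon, encoded by Cald1, restrains myosin on actin, and its 2 probes gave differences of -0.023 ± 0.11 and -0.047 ± 0.14 (adjusted p = 0.944 and 0.899). The first (ILMN_2804261) averaged 9.30 ± 0.13 with Foxp1 and 9.33 ± 0.13 in controls (SD, n = 3 each), and the second (ILMN_1232081) averaged 9.79 ± 0.15 with Foxp1 and 9.83 ± 0.24 in controls. Both probes thus differed by less than the spread between replicates.

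Vcl and Flna encode proteins that tie actin to the membrane. Vinculin, the adaptor of focal adhesions, read 13.38, 13.27 and 13.50 on the Foxp1 arrays and 13.62, 13.41 and 13.40 on the control arrays (ILMN_2419138). Its groups overlapped, with a log2 difference of -0.095 ± 0.11 (95% interval -0.34 to 0.15, limma adjusted p = 0.692). Leaving out Foxp1 replicate 2 gave -0.041, leaving out Foxp1 replicate 3 gave -0.15, and leaving out control replicate 1 gave -0.025. With no array of replicate 3 it was -0.20. Filamin A, which cross-links actin filaments, read 12.29, 12.27 and 11.86 on the Foxp1 arrays and 12.38, 12.17 and 11.92 on the control arrays (ILMN_1245994). The replicate 3 array was the lowest of each group, and the log2 difference was -0.019 ± 0.16 (95% interval -0.39 to 0.35, adjusted p = 0.967). All 6 tested contractile probes had a difference below 0, from -0.25 to -0.019 with a median of -0.071, but 0 of them passed, and the signs of Flna and both Cald1 probes turned under other settings (Flna to 0.014 with median scaling).

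The 3 YAP targets gave small differences of either sign. Ctgf, a secreted matricellular protein, had intensities of 20289, 20092 and 22961 on the Foxp1 arrays and of 16076, 17840 and 25477 on the control arrays (ILMN_2909150). Its normalized log2 levels were 14.26, 14.34 and 14.39 with Foxp1 and 14.22, 14.27 and 14.64 in controls. The Foxp1 arrays lay inside the range of the controls, and the log2 difference was -0.047 ± 0.13 (95% interval -0.35 to 0.25, limma adjusted p = 0.887). The sign of this value also turned with median scaling, to 0.056.

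Cyr61, a secreted relative of Ctgf that binds integrins, had 3 probes, which did not give the same picture. ILMN_2710253 read 11.12, 11.02 and 11.15 on the Foxp1 arrays and 11.37, 11.29 and 11.30 on the control arrays. Its intensities before normalization overlapped, at 1961, 1701 and 2981 on the Foxp1 arrays and 1919, 1853 and 3762 on the control arrays. After normalization each Foxp1 array was below each control array, with a log2 difference of -0.23 ± 0.090 (95% interval -0.43 to -0.019). Its unadjusted p was 0.0357, the lowest among the members, and its limma adjusted p was 0.239. The other probes, ILMN_1235571 and ILMN_2794645, had overlapping groups and differences of 0.013 ± 0.11 and 0.043 ± 0.12 (adjusted p = 0.97 and 0.89). ILMN_1235571 averaged 10.72 ± 0.18 with Foxp1 and 10.71 ± 0.076 in controls, and ILMN_2794645 averaged 12.29 ± 0.061 with Foxp1 and 12.25 ± 0.21 in controls (SD, n = 3 each). The difference between probes was not tested, and the parts of the transcript they read are not given in the files.

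Ankrd1, an ankyrin-repeat protein of the nucleus and the sarcomere, had the most positive differences of the set. ILMN_2950286 read 11.49, 11.56 and 11.56 on the Foxp1 arrays and 11.45, 11.55 and 11.23 on the control arrays, so the Foxp1 arrays lay close together and the control of replicate 3 stood below the rest. Its log2 difference was 0.13 ± 0.11 (95% interval -0.12 to 0.38, limma adjusted p = 0.569). ILMN_2625451 read 10.14, 10.27 and 10.49 on the Foxp1 arrays and 10.19, 10.29 and 10.01 on the control arrays, with a difference of 0.13 ± 0.13 (95% interval -0.16 to 0.42, adjusted p = 0.624). Within pairs of the same number, the difference of this probe was -0.057, -0.025 and 0.48, and that of ILMN_2950286 was 0.046, 0.013 and 0.33. Both values therefore rested on the replicate 3 arrays. Without these arrays ILMN_2950286 differed by 0.032 and ILMN_2625451 by -0.042.

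**Figure D2:**
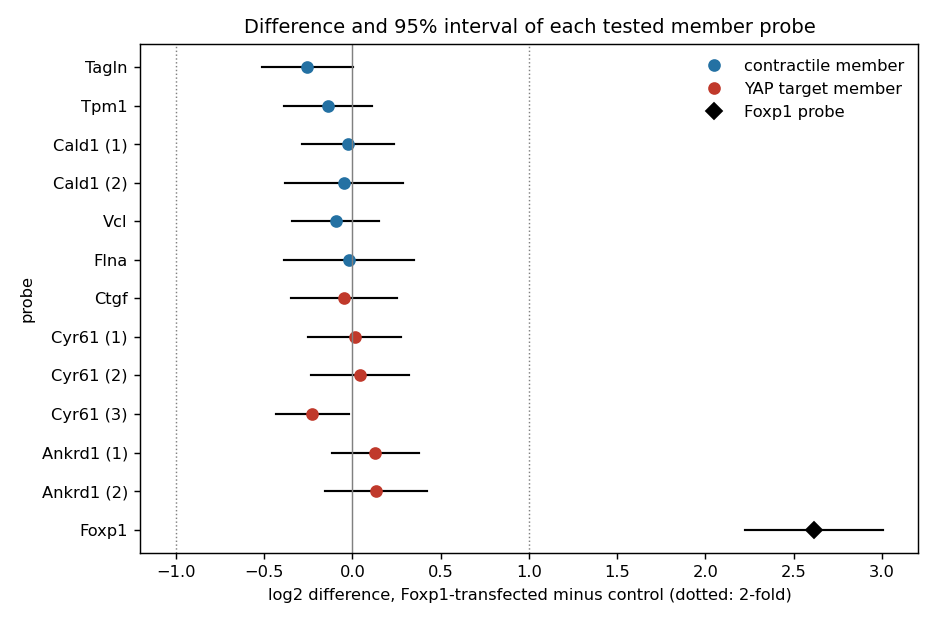
Log2 difference, Foxp1-transfected minus control, with its 95% interval (horizontal axis) for each of the 12 tested member probes and for the Foxp1 probe. All member intervals lie between -0.51 and 0.42, inside the dotted lines at 2-fold, while Foxp1 stands at 2.62.

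The Ctgf and Tpm1 probes were read near the top of the intensity range, and the Vcl probe in its upper part. On each array the Ctgf probe reached 52.7% to 86.1% of the brightest probe's intensity, the Tpm1 probe 56.7% to 81.2% and the Vcl probe 29.4% to 49.9%. Acta2, smooth muscle actin, is a related gene with 4 tested probes spread over this range, and it is set out here after its values were seen. Its brightest probe (ILMN_2693895, 71.1% to 81.3% of the brightest), listed on the array as 0610041G09Rik, differed by -0.14 ± 0.096 (limma adjusted p = 0.495). The next (ILMN_2923445, 36.5% to 62.4%) differed by -0.21 ± 0.086 (adjusted p = 0.254) and ILMN_2710354 (22.6% to 45.0%) by -0.40 ± 0.10 (adjusted p = 0.0978). The dimmest (ILMN_2710353, 18.9% to 38.7%) fell, with intensities of 5689, 5637 and 7600 on the Foxp1 arrays and 6858, 7156 and 11457 on the control arrays and a difference of -0.49 ± 0.099 (adjusted p = 0.0477). That call was lost without any 1 of the arrays other than control replicate 3, with a highest adjusted p of 0.177, with median scaling (0.107), with no detection filter (0.0642) and without both replicate 3 arrays (0.0558). Actin genes have near-identical stretches, so what each probe read is uncertain. Whether brightness held back the differences of Ctgf, Tpm1 or Vcl was not tested.

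Related genes outside the set were mostly without a call as well. The 6 lists of such genes hold 125 distinct genes, of which 109 had a probe and 84 were tested, each at its brightest tested probe. Of these 84, 1 passed as higher and 2 as lower with limma, against 2.73% of all 8789 tested genes (1.58% higher, 1.15% lower). Of the lower calls, that of Ccn5 met the detection filter mainly through the control arrays, and among the 78 genes detected on all 6 arrays 1 was higher and 1 lower. At an unadjusted p under 0.05, 21 of the 84 passed, against 18.5% of all genes. Their median difference was -0.019, beside -0.0019 over all genes, and 39 were positive and 45 negative. The groups did not overlap for 27 of the 84, against 25.8% of all genes.

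Among further smooth muscle and contractile genes, 9 of 19 were tested and 0 rose or fell with limma (1.58% higher and 1.15% lower over all genes). Of the 9, 2 were at an unadjusted p under 0.05 (18.5% over all genes), and the median difference was -0.089. Acta2 counts here at its brightest probe, which did not pass, while its dimmest probe, described above, passed as lower. The lowest p values were those of Csrp1, a LIM protein of smooth muscle (-0.28 ± 0.086, adjusted p = 0.149), and Fhl2, a LIM protein that is a target and a partner of serum response factor (0.31 ± 0.11, adjusted p = 0.206). Of 7 smooth muscle markers, Acta2 and Smtn (smoothelin) were detected on all 6 arrays, while Myh11, Actg2, Lmod1, Des and Synpo2 were detected on no array in either group.

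Among 24 tested genes of the actin network and of adhesions, 0 rose and 1 fell (1.58% higher and 1.15% lower over all genes). At an unadjusted p under 0.05 with limma, 4 of the 24 passed (18.5% over all genes), and the median difference was -0.039. The one that fell was Tgfb1i1, which encodes Hic-5, a paxillin relative of focal adhesions. Its probe ILMN_1227722 had intensities of 1047, 970 and 1682 on the Foxp1 arrays and of 1420, 1275 and 2521 on the control arrays. Each Foxp1 array was below the control of its own number before normalization and below each control after it (log2 difference -0.54 ± 0.10, 0.686-fold, limma adjusted p = 0.0343). A further probe, ILMN_2693246, gave -0.54 ± 0.11 (adjusted p = 0.0477). The first probe's call was lost without control replicate 1 or 2 or any of the Foxp1 arrays (highest adjusted p 0.166) and with no detection filter (0.0511). The second probe's call was lost when an array other than Foxp1 replicate 3 was left out (highest adjusted p 0.189), with median scaling (0.0564) and with no detection filter (0.0761).

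Serum response factor and YAP themselves did not pass the test. Srf, at its brightest probe (ILMN_2988299), averaged 11.47 ± 0.024 with Foxp1 and 11.45 ± 0.096 in controls (difference 0.016 ± 0.092, limma adjusted p = 0.954). Of 11 tested Hippo pathway genes 0 passed with limma (2.73% over all genes). Of the 11, 2 were at an unadjusted p under 0.05 (18.5% over all genes), and the median difference was -0.016. Yap1 differed by 0.029 ± 0.15 (adjusted p = 0.947). Nearest to a call were Vgll4, a cofactor that competes with YAP for TEAD (-0.43 ± 0.12, adjusted p = 0.116), and Map4k4, a kinase upstream of the Hippo cascade (0.22 ± 0.09, adjusted p = 0.251). Vgll4 passed as lower with array weights (-0.42, limma adjusted p = 0.0369), in 1 of the 15 other settings.

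Among 22 further YAP and TEAD targets, 1 rose and 0 fell (1.58% higher and 1.15% lower over all genes). Of the 22, 9 were at an unadjusted p under 0.05 (18.5% over all genes), and the median difference was -0.03. The riser was Ptpn14, a protein tyrosine phosphatase that is both a target and an inhibitor of YAP. Its probe (ILMN_2621021) had intensities of 287, 280 and 445 on the Foxp1 arrays and of 130, 132 and 318 on the control arrays. Its normalized levels were 8.46, 8.48 and 8.47 with Foxp1 and 7.64, 7.63 and 7.77 in controls, so the groups were far apart relative to their spread. The log2 difference was 0.79 ± 0.089, or 1.73-fold (95% interval 0.58 to 1.00, limma adjusted p = 0.00544), and the call was lost without Foxp1 replicate 1 (0.0546) or 2 (0.0569). With the replicate number as a block Ajuba, a LIM protein that restrains the Hippo kinases, also passed as higher (0.58 ± 0.093, limma adjusted p = 0.0341, against 0.175 without the block). Its probe was not detected on all 6 arrays, and the difference without the block was 0.42 with an offset of 50, so its size is uncertain. In the CCN and ankyrin-repeat families, 2 of the 6 relatives of the members were tested, and Ccn5, a matricellular relative of Ctgf that lacks its C-terminal domain and is listed on the array as Wisp2, passed the test as lower. Ccn5 had intensities of 59.2, 32.3 and 77.4 on the Foxp1 arrays, of which 1 detected it, and of 87.8, 79.5 and 204 on the control arrays, of which all 3 did. With Foxp1 it was thus not above background on 2 of 3 arrays, so the fitted log2 difference of -0.91 ± 0.14 (limma adjusted p = 0.0214) does not measure the size of a change. The call was lost when control replicate 1 or 2, or Foxp1 replicate 2 or 3, was left out (highest adjusted p 0.0794). It was also lost without both replicate 3 arrays (0.0719) and with no detection filter (0.0525).

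**Figure D3:**
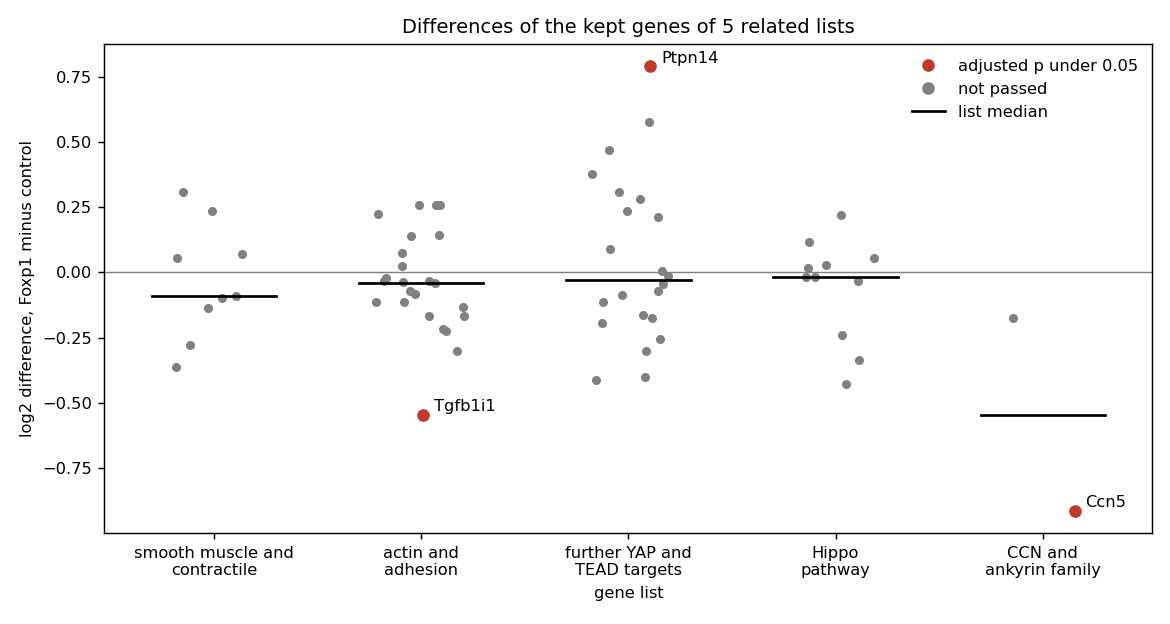
Log2 difference, Foxp1 minus control (vertical axis), of each tested gene in 5 of the 6 related lists, with genes past an adjusted p of 0.05 in red and the list median as a line. Past the threshold are Ptpn14 at 0.79, Tgfb1i1 at -0.54 and Ccn5, whose fitted value of -0.91 is not a measured size since 1 of 3 Foxp1 arrays detected it.

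Marker genes were read as a check of the striatal label. Of 7 neural progenitor markers, Vim, Nes and Sox2 were detected on all 6 arrays and Pax6, Msi1, Fabp7 and Hes5 on no array. Detected on all 6 arrays were also 5 of 8 fibroblast and mesenchymal markers (Col1a1, Col3a1, Pdgfra, Pdgfrb and Dcn). Of 10 neuronal and striatal markers, 9 had a probe and 3 were tested (Map2, Ppp1r1b and Drd2), while Snap25, Gad1, Gad2, Drd1 and Bcl11b were detected on no array. The tested Ppp1r1b probe (ILMN_1253473) was detected on 3 control arrays and 0 Foxp1 arrays, so it met the filter through the controls alone. It lay at the edge of detection, with a detection p of 0.0501 to 0.0990 with Foxp1 and 0.0213 to 0.0288 in controls. It did not pass the test (limma adjusted p = 0.124). Of the untested Ppp1r1b probes, ILMN_2651660 was detected on 1 Foxp1 and 1 control array and ILMN_2954824 on no array. Drd2 was detected on 5 of the 6 arrays, at intensities of 51.5 to 122 over all of them. All 6 microglial markers and 4 of 5 endothelial markers were detected on no array. Of 6 astrocyte markers, Slc1a3 was detected on all 6 arrays and Aldh1l1 on 3, while Gfap, Aqp4 and S100b were detected on no array. Of 10 striated muscle markers, 9 had a probe, of which Myog was detected on 3 arrays and the other 8 on no array. The summed intensity of the mesenchymal markers before normalization was 3811 to 5555 on the Foxp1 arrays and 4027 to 8667 on the control arrays. The replicate 3 array was then the brightest of each group, so these sums do not compare the groups. After normalization 1 of the 5 tested markers, Pdgfra, fell (-0.61 ± 0.12, limma adjusted p = 0.0471). That call was lost with the replicate block (0.0524), with no detection filter (0.0859), without both replicate 3 arrays (0.0712) and without any 1 of the arrays other than control replicate 3 (highest adjusted p 0.172). Its part in the values above was not tested.

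**Figure D4:**
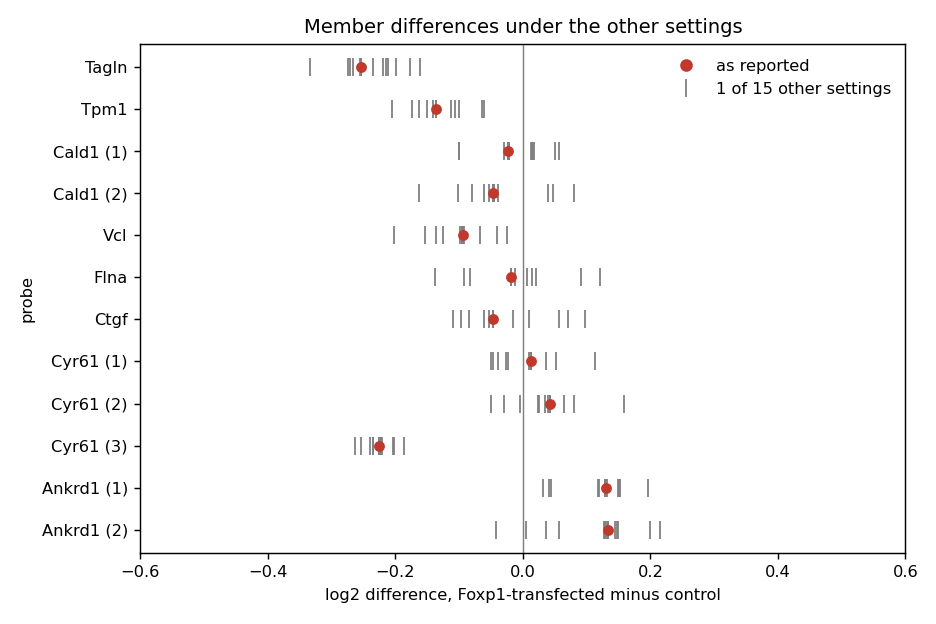
Log2 difference of each of the 12 tested member probes (horizontal axis) as reported, and under each of 15 other settings of the normalization, the filter, the model or the arrays used. The differences of Tagln, Tpm1, Vcl, Cyr61 (3) and Ankrd1 (1) keep 1 sign, and those of the other 7 probes lie on both sides of 0.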

How the data were processed

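RNA of 6 samples was measured, 3 Foxp1-transfected and 3 control, grouped by their titles. The authors deposited a background-subtracted probe intensity (29.5% to 31.6% of values below 0) and a detection p-value per probe and array, per the file headers; GenomeStudio is named in the submitters' processing notes. A second deposited table holds the authors' log2 values, whose normalization is not given in the sources used here, and served as an alternative. Intensities were corrected and quantile-normalized with limma 3.58.1 in R 4.3.3 (neqc, background inferred from detection p, offset 16). Probes detected (p under 0.05) on 3 or more arrays, 12136 or 47.2%, were tested (lmFit, eBayes, 2-sided, Benjamini-Hochberg over all of them, threshold 0.05). Errors are SE unless given as SD, and the number of arrays limits precision. Related genes were taken at their brightest tested probe, 8789 genes in all. Array symbols were updated through RefSeq synonyms (GRCm38.p6; 7082 probes), and coordinates belong to the RefSeq windows only.

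Members, lists and tests were chosen with earlier results of these data known, and the motif search and Acta2, Pdgfra and Ajuba after their values were seen. In each list reported, named genes are up to 4 past the threshold, or else the 2 with the smallest p. Srf and Yap1 are named outside this rule, as the factors themselves. The 3 pairs of arrays with 1 number had correlated residuals (0.257, 0.115 and 0.401), each over 0.1. Replicate numbers may be pairs, from the data rather than the labels, but arrays with different numbers were not compared in this way. Whether they are pairs is thus not settled. The values reported come from a fit without pairs, and a fit with the replicate number as a block served as an alternative. With limma, 445 probes passed with that block and 317 without it. The headers name no slide, so no slide block was fitted. Set tests were not run. The separate result of 1 of the 6 lists is not reported here, and the totals include it.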

Additional observations from a re-analysis of the deposited data

How the results depend on the processing

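The count of member probes past the threshold was 0 of 12 under all 15 other settings (0 of 13 with no detection filter), with a lowest adjusted p of 0.111. Of the 180 member values, 153 kept their sign and 27 turned it, in 7 probes. Turned values with array weights were 0.057 for Cald1 ILMN_2804261, 0.020 for Flna, 0.0098 for Ctgf, -0.039 for Cyr61 ILMN_1235571 and -0.050 for Cyr61 ILMN_2794645, and with median scaling 0.014 for Flna and 0.056 for Ctgf. Without both replicate 3 arrays they were 0.050 and 0.046 for the Cald1 probes ILMN_2804261 and ILMN_1232081, 0.0063 for Flna, 0.070 for Ctgf, -0.050 for Cyr61 ILMN_1235571 and -0.042 for Ankrd1 ILMN_2625451. With 1 array left out, values ran from -0.10 to 0.018 and from -0.16 to 0.081 for these Cald1 probes, from -0.14 to 0.12 for Flna, from -0.11 to 0.097 for Ctgf, and from -0.046 to 0.11 and from -0.029 to 0.16 for the Cyr61 probes ILMN_1235571 and ILMN_2794645. The same range was -0.33 to -0.16 for Tagln, -0.21 to -0.061 for Tpm1, -0.15 to -0.025 for Vcl, -0.25 to -0.19 for Cyr61 ILMN_2710253, 0.043 to 0.20 for Ankrd1 ILMN_2950286 and 0.036 to 0.21 for Ankrd1 ILMN_2625451. The cause was not tested. Over the whole table, 317 probes and 240 genes passed, and the counts were 207 probes with no detection filter, where more probes are tested, and 1034 probes and 753 genes with array weights. With 1 array left out they ran from 35 to 373 probes and from 28 to 262 genes, on fewer samples. Of the related genes, 3 passed as reported, 1 with no detection filter, 6 with array weights and 0 to 4 with 1 array left out. With the replicate block 445 probes and 333 genes passed, 0 member probes among them, and apart from Ajuba and Pdgfra it changed no call named here. Cnn1 gave no value but in the fit with no detection filter. The slide block was not run, as the headers name no slide.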
